A study of Mus musculus with 9 samples.

Results

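DNA methylation in Abl.1 cells grown for 2 days with 2 µM 5-aza-dC (5-aza-2'-deoxycytidine) was compared with that in cells grown in the solvent DMSO. Abl.1 is a clonal immortalised B cell line from a female mouse, an F1 of the strains 129S1/SvImJ and CAST/EiJ. The comparison took every library of these 2 groups by label, 5 of the 9 libraries of the series: DMSO replicates 1 and 2, and 2 µM replicates 1, 2 and 3. The DMSO libraries came from cells with 1% DMSO in the medium. 5-aza-dC was dissolved in DMSO, and the labels do not give the DMSO share of the treated medium. Live cells were recovered on Histopaque, and methylation was read by reduced representation bisulfite sequencing (RRBS) with a NuGEN kit. RRBS cuts the genome with an enzyme that favours CpG-rich sequence, and bisulfite then turns unmethylated cytosine, but not 5-methylcytosine, into a base read as T. The labels call the replicates repeat library preparations and do not say if each had its own culture. The p-values below therefore rest on the spread between these libraries, which may be technical. For single tiles, gene ends and gene bodies that spread was mostly pooled over many features. The line is 1 clone, so no value speaks for other clones or for B cells of an animal.

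5-aza-dC is a cytidine analogue that dividing cells build into new DNA, where it traps DNMT1, the maintenance methyltransferase that copies CpG methylation onto the daughter strand. Methylation is then diluted as cells divide. In mammalian somatic cells most CpGs outside CpG islands are methylated, CpG-rich gene starts are mostly free of it, and the exceptions at gene starts include germline genes, imprinted genes and genes of the inactive X chromosome.

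The libraries held 9422785 to 16495535 reads at CpGs (median depth 3 to 5 per covered CpG), and DMSO replicate 2 was the smallest. Of 2442929 CpGs read in at least 1 of the 5 libraries, 509959 had 5 or more reads in all 5 and were used. The level of a CpG is its percentage of reads that stayed methylated, and the level of a larger feature is the same percentage over the reads of all its CpGs, weighted by reads. Read numbers given for a library or a larger feature are summed over CpGs, so a read that covers several CpGs is counted at each. The label of a B cell line was looked at through the gene ends of B lineage genes, as a description of methylation and not of expression. Most of the 17 B lineage windows were low in DMSO, among them Ebf1 at a mean of 0.321% and Ikzf1 at 0.299%, while a far end of Btk was at 25.9% and that of Tcf3 at 96.3%, and Pax5 had no end window with enough reads. Genes of other lineages were mixed. Cd4 was at 0.605% and Cd14 at 0.992%, but the T lineage genes Bcl11b and Lat were at 80.9% and 53.4%. Tal1, Klf1, Cebpa and Gata2, of the myeloid and erythroid list, were at 18.5%, 13.1%, 12.3% and 11.9%. Medians were 1.13% for B lineage, 28.8% for 4 T lineage and 6.75% for 8 myeloid and erythroid windows. The median of all end windows was 0.815%, so a low level is not particular to B lineage genes. Whether the lists differ was not tested.

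Promoter sequences of 6 genes are shown first, because the loss can be read on them CpG by CpG: 4 germline genes, the tumour suppressor Dapk1 and the imprinted gene Plagl1. Each run is 300 bases from RefSeq for GRCm38.p6 (mm10), 250 before and 50 after the start, written 5′ to 3′ on the strand of the gene. Capitals mark the CpGs that had 5 or more reads in all 5 libraries. The gene list and these 6 genes were chosen with earlier results of these data known.

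Hormad1, chr3:95559427-95559726, plus strand: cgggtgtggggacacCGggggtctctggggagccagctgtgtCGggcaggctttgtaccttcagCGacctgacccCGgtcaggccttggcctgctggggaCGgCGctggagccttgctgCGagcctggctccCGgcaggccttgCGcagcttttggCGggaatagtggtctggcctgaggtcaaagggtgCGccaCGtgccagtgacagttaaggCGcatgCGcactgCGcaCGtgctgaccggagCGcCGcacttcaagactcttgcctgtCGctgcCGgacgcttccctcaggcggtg
Sycp1, chr3:102936051-102936350, minus strand: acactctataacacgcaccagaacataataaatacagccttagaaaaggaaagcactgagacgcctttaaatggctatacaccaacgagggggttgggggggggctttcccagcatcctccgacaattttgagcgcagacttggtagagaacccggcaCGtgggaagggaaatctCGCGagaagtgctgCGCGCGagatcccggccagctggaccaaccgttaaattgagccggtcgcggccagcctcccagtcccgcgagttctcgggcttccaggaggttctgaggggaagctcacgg
Tdrd5, chr1:156303299-156303598, minus strand: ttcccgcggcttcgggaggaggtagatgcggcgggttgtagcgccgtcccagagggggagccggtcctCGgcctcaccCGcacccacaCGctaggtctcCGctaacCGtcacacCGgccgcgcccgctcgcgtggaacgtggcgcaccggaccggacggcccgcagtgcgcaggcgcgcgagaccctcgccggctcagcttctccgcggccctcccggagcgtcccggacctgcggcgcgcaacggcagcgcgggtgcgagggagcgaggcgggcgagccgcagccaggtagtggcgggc
Mael, chr1:166238695-166238994, minus strand: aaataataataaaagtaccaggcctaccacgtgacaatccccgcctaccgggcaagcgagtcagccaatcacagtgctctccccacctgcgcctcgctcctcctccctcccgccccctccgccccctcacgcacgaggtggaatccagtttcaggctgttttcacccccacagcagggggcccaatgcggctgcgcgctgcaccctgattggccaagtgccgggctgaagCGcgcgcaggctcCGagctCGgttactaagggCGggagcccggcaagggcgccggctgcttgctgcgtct
Dapk1, chr13:60601961-60602260, plus strand: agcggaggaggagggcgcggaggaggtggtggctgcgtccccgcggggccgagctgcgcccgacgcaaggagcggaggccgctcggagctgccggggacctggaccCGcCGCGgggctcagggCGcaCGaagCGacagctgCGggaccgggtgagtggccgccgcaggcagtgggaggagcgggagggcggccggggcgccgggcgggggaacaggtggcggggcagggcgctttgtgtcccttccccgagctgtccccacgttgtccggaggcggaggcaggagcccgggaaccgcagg
Plagl1, chr10:13090582-13090881, plus strand: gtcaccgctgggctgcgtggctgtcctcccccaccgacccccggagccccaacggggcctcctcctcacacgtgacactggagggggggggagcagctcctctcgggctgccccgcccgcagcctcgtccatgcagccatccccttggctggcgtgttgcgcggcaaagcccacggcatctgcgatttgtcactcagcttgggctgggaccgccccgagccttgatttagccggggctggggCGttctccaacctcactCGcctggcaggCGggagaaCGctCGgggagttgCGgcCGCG

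Hormad1 encodes a HORMA domain protein of meiotic chromosome axes. Of the 24 CpGs in its window 20 were measured, on 178 to 302 reads per library, and their mean level was 94.4% and 93.2% in the DMSO libraries and 58.7%, 50.8% and 50.4% in the treated ones. All 20 CpGs had a lower mean after treatment, from 235 bases before to 28 bases after the start. Neighbouring CpGs share reads and so are not separate measurements. The 6 measured CpGs of Sycp1, a synaptonemal complex protein, lay 92 to 57 bases before its start and went from 95.2% and 97.9% to 52.6%, 47.9% and 51.0%. Tdrd5, a tudor domain protein of the piRNA pathway that silences transposons in germ cells, had 6 measured CpGs, with 90.3% and 94.4% in DMSO and at 68.7%, 70.9% and 55.5% after treatment. Mael, of the same pathway, had 4, at 100% and 83.3% in DMSO and 51.9%, 63.2% and 61.6% after treatment. Its fewest reads, 24 in DMSO replicate 2, were 6 at each of the 4 CpGs. At all 4 germline promoters the treated libraries lay below both DMSO libraries.

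Dapk1 encodes a kinase that promotes cell death. Its 7 measured CpGs stood at 92.4% and 88.6% in DMSO and at 37.1%, 58.2% and 64.3% after treatment. The treated libraries lay below DMSO and apart from each other. Each CpG had 5 or 6 reads in DMSO and 8 to 14 after treatment, and neighbouring CpGs share reads. Whether this spread exceeds counting error was not tested. Plagl1 encodes an imprinted zinc finger protein. Its 8 measured CpGs, close to the start, averaged 27.7% and 23.8% in DMSO and 12.5%, 29.6% and 26.8% after treatment. They had 9 to 26 reads each, and the groups overlapped. The E box letters CACGTG, the same on both strands, occurred 2 times in the Hormad1 run, 1 time each in Sycp1, Mael and Plagl1, and not in Tdrd5 or Dapk1.

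**Figure D1:**
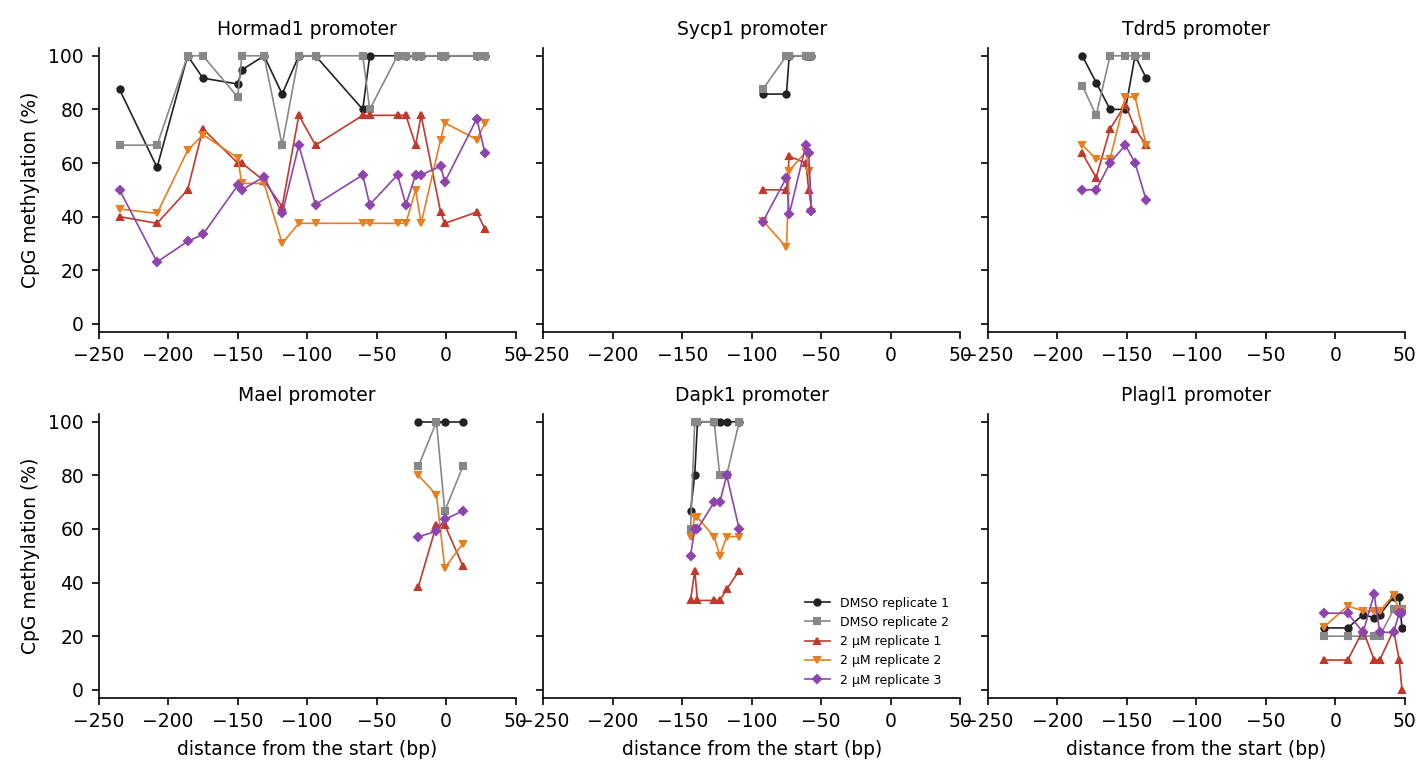
Methylation (%, vertical axis) of each measured CpG against its distance from the start (bp, horizontal axis) in the 6 promoters printed above; each line is 1 library, black and grey for DMSO, coloured for 2 µM. The coloured lines run below the black and grey ones across the 20 CpGs of Hormad1, and overlap them in Plagl1.

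Averaged over the 509959 CpGs, the DMSO libraries were at 18.8% and 19%, and those with 2 µM at 11.1%, 11.2% and 11.4%. The groups did not overlap. The group means were 18.9% ± 0.151 (SD, n = 2) and 11.2% ± 0.142 (SD, n = 3), so treated cells kept 59.5% of the DMSO level and the mean fell by 7.64 percentage points. The exact two-sided permutation test gave p = 0.1, the smallest value that 3 libraries against 2 allow. The size depended on which CpGs were counted: the difference was -2.52 points over CpGs with 10 or more reads in all 5 libraries and -14.9 points over those with at least 1. Weighted by reads, it was -0.686 points (exact permutation p = 0.7), with DMSO at 11.2% and 13.5% and the treated libraries at 11.4%, 11.5% and 12%. The 1000 most-read CpGs, which took 8.02% of the reads, stood at 22.9% and 25.8% in DMSO and at 25.0%, 26.0% and 26.8% after treatment, and without them the read-weighted difference was -1.22 points.

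The loss followed the place of a CpG relative to genes. Within 1 kb of a gene end, 348372 CpGs went from a mean of 9.57% to 6.12%, a fall by 3.45 points. Elsewhere inside genes, 124933 CpGs went from 35.5% to 20.2%, a fall by 15.3 points. Outside genes, 36654 CpGs went from 50.6% to 29.4%, a fall by 21.3 points. As a share of the DMSO level, gene ends kept 64.0%, the rest of genes 56.9% and the space outside genes 58.0%. The 3 treated libraries kept 63.4% to 65.0% at gene ends and 56.3% to 57.6% in the rest of genes. The ratio of the level in genes to that at gene ends went from 3.71 to 3.30 (exact permutation p = 0.1, n = 2 and 3). Along the distance from a gene start, the DMSO mean was lowest, 6.21%, in the 250 bp before it, where 67.0% was kept. It was highest, 29.8%, from 3 to 4 kb downstream, where 56.5% was kept.

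The share kept also differed by starting level. With classes set on one DMSO library and the baseline read in the other, CpGs at 80% or above went from 91.3% to 50.5% and kept 55.3%. Those at 50 to 80% kept 58.4%, those at 20 to 50% kept 66.0%, and those under 20% went from 2.06% to 1.65%. With the DMSO libraries exchanged the shares kept were 55.5%, 60.0%, 69.0% and 82.6%. Among autosomal CpGs at 80% or above the places lay closer together: gene ends kept 57.1%, the rest of genes 54.1% and the space outside genes 56.0%.

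**Figure D2:**
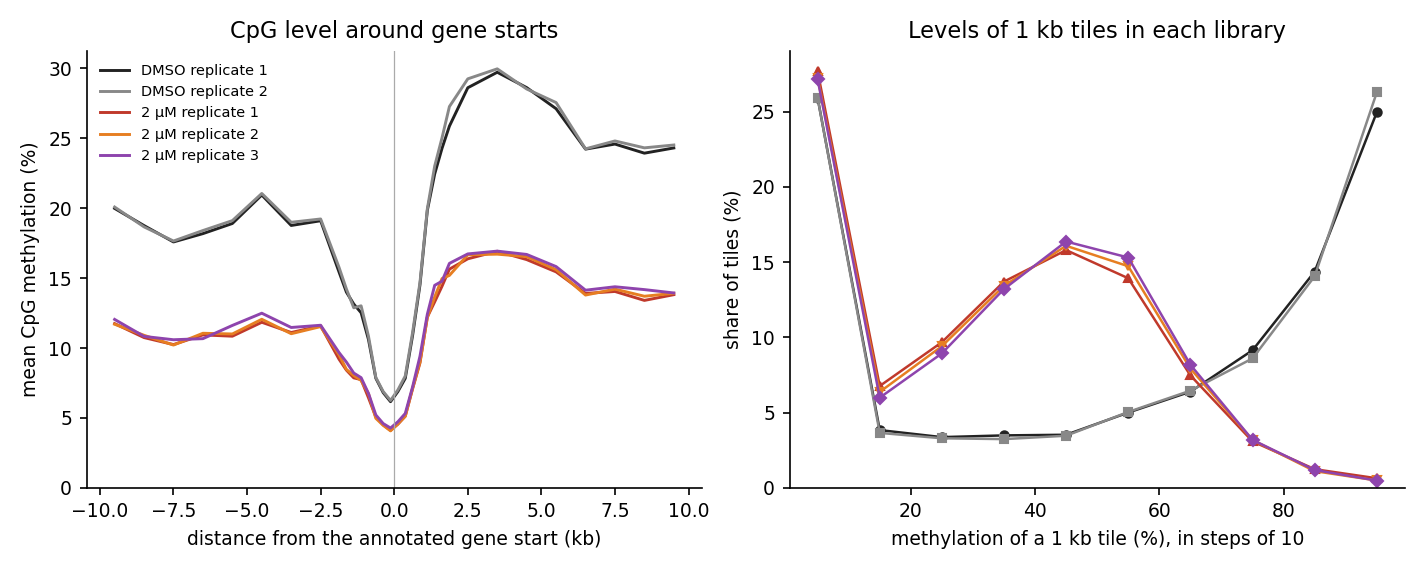
Left, mean CpG level (%) against distance from annotated gene starts (kb), 1 line per library. Right, share of 1 kb tiles (%) at each methylation level (%, in steps of 10). The treated libraries lie below DMSO at every distance, with least difference at the start; the DMSO libraries have 25.0% and 26.3% of tiles at 90% or above, and the treated ones pile up at 40 to 50%.

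The genome was also divided into tiles of 1 kb, and 73690 tiles had 10 or more reads in each library. Their mean level was 54.6% ± 0.297 (SD, n = 2) in DMSO and 32.4% ± 0.465 (SD, n = 3) at 2 µM. Tiles at 90% or above made up 25.0% and 26.3% of all in the DMSO libraries and 0.635%, 0.489% and 0.483% in the treated ones. Tiles at 40 to 50% went from 3.53% and 3.46% to 15.8%, 16.1% and 16.4%. Each tile was tested with a binomial-type model of methylated against all reads with a moderated dispersion, and p-values were adjusted by the Benjamini-Hochberg method with a threshold of 0.05. It called 34792 tiles lower at 2 µM (47.2% of those tested) and 93 higher (0.126%). In 45743 tiles (62.1%) all 3 treated libraries lay below both DMSO libraries, and in 1400 (1.9%) above. The counts were 19553 lower and 35 higher without DMSO replicate 1, and 22328 and 44 without DMSO replicate 2. Where the change of a tile was taken against the median change of all tiles (-1.08 on the log odds scale), 4786 were called lower and 1700 higher. The moderation mattered: with its prior drawn from all tiles, also those near 0 or 100%, no tile was called by the limma-moderated test, and 31301 had an unadjusted p under 0.05. The prior used here was drawn from tiles at 10 to 90%.

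A tile at chr5:100354001-100355000, nearest to Sec31a, stood at 100% in both DMSO libraries and at 25.0%, 22.2% and 16.7% after treatment, on 20 to 36 reads. A tile in Clk4, a kinase of splicing factors, at chr11:51271001-51272000 went from 100% and 96.4% to 7.14%, 14.6% and 40.3%. The rises were few and uneven. A tile at chr12:20197001-20198000, nearest to the predicted gene Gm32719, stood at 4.86% and 15.3% in DMSO and at 86.7%, 53.9% and 82.6% after treatment, on 60 to 258 reads (adjusted p = 2.96e-05, limma-moderated test). A tile in Gria2, a glutamate receptor subunit, at chr3:80801001-80802000 stood at 24.1% and 39.1% in DMSO and 58.3%, 61.9% and 66.7% after treatment. The Gria2 call was lost without DMSO replicate 1 (adjusted p = 0.280, limma-moderated test).

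Gene by gene, each end of a RefSeq gene was given a window of 1 kb to either side, tested where it held 3 or more CpGs: 15242 windows of 14024 genes. The end is called the start or the far end where the RefSeq promoter table placed the start there, and an unplaced end otherwise. The test called 2538 windows lower (16.7%) and 11 higher (0.0722%), and all 3 treated libraries lay below both DMSO libraries in 5038 (33.1%) and above in 738 (4.84%). With the prior drawn from all windows none was called, and 2738 had an unadjusted p under 0.05. Against the median change the counts were 1639 lower and 41 higher. Leaving out 1 library gave 1716 to 2372 lower, and 5 higher windows at the fewest, without 2 µM replicate 2. Of 10657 start windows 1422 were lower, of 1465 far ends 516, and of 3120 unplaced ends 600. The starting level divided them: 1333 of 1389 windows at 80% or above in DMSO were lower, 1183 of 2712 at 20 to 80%, and 22 of 11141 under 20%. Among 479 windows at 80% or above with 50 or more reads in every library, the median went from 91.5% to 52.0%, with falls from 16.8 to 66.9 points.

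The deepest falls by window were in little-studied genes and a few known ones. The unplaced end of Gm49085 (chr15:38011800-38013800) went from 95.0% and 96.4% to 26.2%, 23.5% and 21.1%, on 20 to 65 reads. The far end of Pithd1 went from 96.2% and 100% to 19.4%, 37.8% and 34.7%. A window shared by Grap, an adaptor protein of lymphocyte signalling, and the far end of Slc5a10, a sugar transporter (chr11:61671777-61673777), went from 97.1% and 98.4% to 33.0%, 20.3% and 39.2%. The start of Hspa12b, a heat shock protein relative, went from 95.8% and 100% to 43.2%, 54.2% and 8.51%, with replicate 3 far below the other two. Others were Gm46560, Tex43, Gm32298, Gm33430 and Spon1, with changes of -63.0 to -65.0 points. All 10 of these windows stayed lower with any 1 library left out.

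The windows that kept most were at 80% or above in DMSO and changed least among those with 50 or more reads. An unplaced end of 9030624G23Rik (chr12:24096256-24098256) went from 95.3% and 89.8% to 80%, 70.1% and 77.2% (adjusted p = 0.0266, limma-moderated test). The start of Gm40862, on the same chromosome at chr12:23633845-23635845, went from 96.3% and 96.4% to 83.7%, 76.5% and 69.1%. The start of Phox2a, a transcription factor of autonomic neurons, went from 82.7% and 84.6% to 75.8%, 49.3% and 66.7%. The start windows of Pou3f3, at 90.3% and 90.1% in DMSO, and of the X-linked Tmem47, at 84.6% and 82.8%, were not called, with treated levels of 56.7% to 82.2% and of 59.8% to 70.9%. All 5 lay below DMSO in all 3 treated libraries. The calls of 9030624G23Rik and Phox2a were lost without DMSO replicate 1 (adjusted p = 0.312 and 0.159, limma-moderated test), without DMSO replicate 2 (0.0527 and 0.150) and without 2 µM replicate 2 (0.0988 and 0.290).

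Windows that rose were low in DMSO. The start of Zfp772, a zinc finger gene (chr7:7208998-7210998), had no methylated read in DMSO and 22.7%, 31.5% and 10.5% after treatment, on 22 to 69 reads. The start of the X-linked Fam50a went from 9.45% and 0% to 14.0%, 29.3% and 34.0%. The start of Sms, the X-linked spermine synthase, went from 13.4% and 10.8% to 27.3%, 18.2% and 19.2% over 66 CpGs, but with windows of 500 bp to either side the change was -4.81 points and not called (adjusted p = 1, limma-moderated test). The start shared by 2010001A14Rik and Sap30l (chr11:57800467-57802467), with 77 CpGs and 1262 to 2503 reads, went from 7.35% and 3.01% to 13.1%, 12.2% and 12.5%. The overlapping start windows of Tomm20, a mitochondrial import receptor, and LOC115486982, which hold the same 34 CpGs, went from 5.60% and 6.99% to 12.8%, 14.6% and 13.2%. The treated libraries lay above both DMSO libraries in all of them, which the rule that named them required. Of these 6 windows, 2 stayed higher when DMSO replicate 1 was left out and 1 when DMSO replicate 2 was. Leaving out 2 µM replicates 1, 2 and 3 in turn kept 5, 2 and 3 of the calls.

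Germline genes were methylated at their starts in DMSO, and nearly all of the measured ones fell. Of 38 listed genes 15 had an end window, all at their start, and 14 were lower, with a median of 92.3% in DMSO and 51.5% at 2 µM. Over all windows 16.7% were lower, and the medians were 0.815% and 0.726%. Of all 1389 windows at 80% or above in DMSO, 1333 were lower. Hormad1 went from 92.7% and 93.4% to 53.8%, 53.3% and 50.0%. Dazl, an RNA-binding protein of germ cells, went from 96.5% and 99.0% to 61.6%, 59.1% and 53.0%. Meioc, needed for the meiotic programme, went from 98.1% and 96.1% to 57.6%, 57.8% and 49.2%. Tdrd1, a tudor domain protein of the piRNA pathway, went from 85.6% and 86.5% to 45.5%, 47.1% and 31.0%. In each of these genes both DMSO libraries were close and the treated libraries lay far below.

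The synaptonemal complex genes Sycp1, Sycp2 and Sycp3 went from means of 96.3%, 95.5% and 92.3% to 50.7%, 45.4% and 48.2%. The oocyte factor Nobox went from 87.5% and 95.7% to 52.3%, 42.6% and 44.2%. Slc25a31, a testis ADP/ATP carrier, went from 96.0% and 100% to 40%, 56.0% and 80%. This uneven spread rests on 25 reads in each library, summed over neighbouring CpGs. The call of Slc25a31 was lost without DMSO replicate 2, where the change was -37.3 points. Cyct, the testis cytochrome c, was the 1 window not called, at 77.3% and 75% in DMSO and 48.9%, 50.0% and 55.6% after treatment (adjusted p = 0.0986, limma-moderated test). Without DMSO replicate 1 the list had 9 lower windows and without DMSO replicate 2 it had 10. Tdrd5 lost its call without either DMSO library and Mael without DMSO replicate 1 (adjusted p = 0.373, limma-moderated test).

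**Figure D3:**
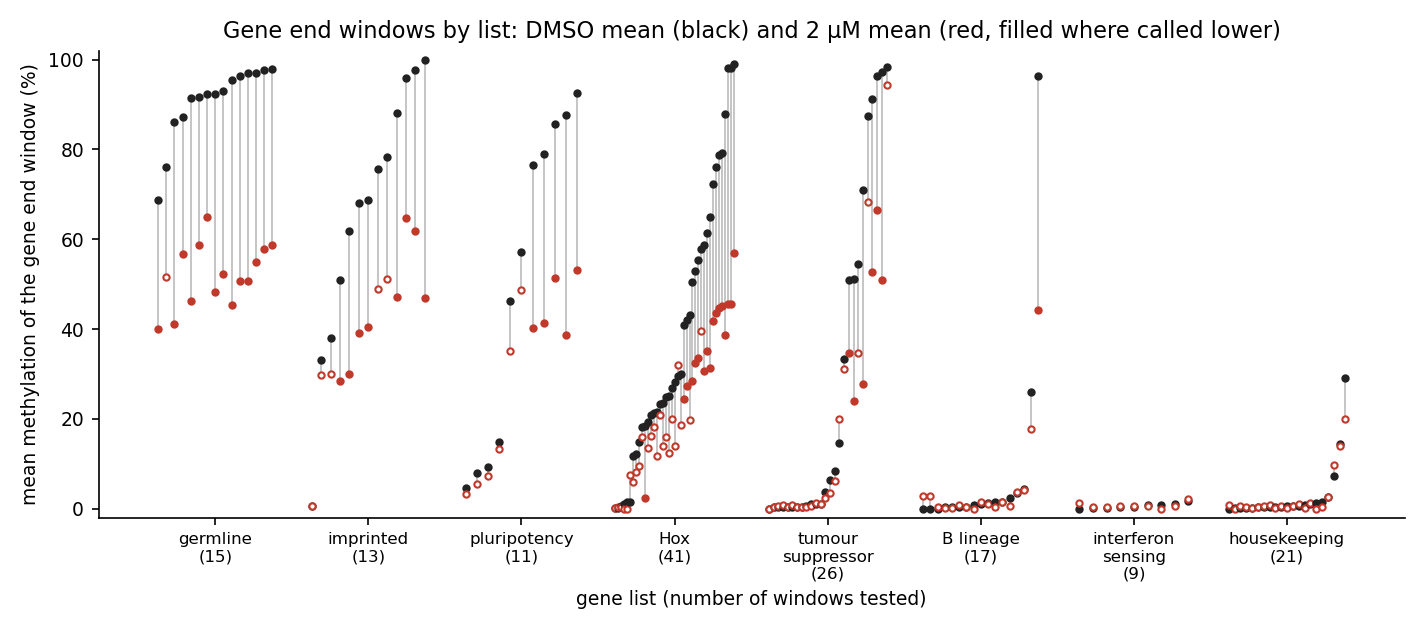
Mean methylation (%) of each gene end window in DMSO (black) and at 2 µM (red, filled where called lower), joined by a line, by gene list with the number of windows tested. Germline windows stand at 68.7% or above in DMSO and 14 of 15 are filled; B lineage, interferon-sensing and housekeeping windows lie mostly near 0 in both groups.

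Imprinted genes, expressed from 1 parental allele, had 13 windows, of which 8 were lower (16.7% of all end windows were), with a median of 68.7% in DMSO and 40.4% at 2 µM. At 80% or above in DMSO 4 of 4 imprinted windows were lower, and at 20 to 80% 4 of 8. Over all windows these counts were 1333 of 1389 and 1183 of 2712. Peg12 went from 67.7% and 68.6% to 37.8%, 36.5% and 43.1%. Zrsr1 went from 43.1% and 58.8% to 31.3%, 26.7% and 27.0%, a call lost without DMSO replicate 2 (adjusted p = 0.330, limma-moderated test). Rasgrf1 went from 60.1% and 63.5% to 30.9%, 25.8% and 33.0%. Nap1l5 went from 100% in both to 63.3%, 57.1% and 20%. Peg13, Magel2, Meg3 and Nnat were the others called. The Plagl1 window, 38 CpGs shared with Hymai, was at 37.8% and 38.1% in DMSO and at 23.5%, 35.3% and 31.1% after treatment and was not called (adjusted p = 0.236, limma-moderated test), although all 3 treated libraries lay below DMSO. Gnas, at 26.6% and 39.6% in DMSO and 34.1%, 32.2% and 23.2% after treatment, overlapped, as did Inpp5f, under 1% in every library. Mest and Grb10 fell short of the threshold. Without either DMSO library in turn the list had 5 lower windows.

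The Hox clusters, which encode transcription factors of body patterning, had 41 windows of 32 genes, and 17 were lower, against 16.7% of all end windows. They ranged from no methylation to full methylation, with a median of 28.3% in DMSO and 19.8% at 2 µM. By starting level, 4 of 4 Hox windows at 80% or above in DMSO were lower, 12 of 25 at 20 to 80% and 1 of 12 under 20%. Over all windows these counts were 1333 of 1389, 1183 of 2712 and 22 of 11141, so the Hox share at 20% or above was near that of all windows at its level. In the Hoxb cluster, Hoxb4 and the far end of Hoxb8 stayed under 1% in every library. Nearby, an unplaced end of Hoxb9 went from 59.8% and 62.9% to 31.7%, 37.9% and 35.8%, and one of Hoxb2 from 40.8% and 43.3% to 24.8%, 28.5% and 28.7%. Hoxb6 had both kinds, one end at 100% and 98.2% falling to 53.6%, 59.3% and 58.1%, and the other under 3% throughout. The start of Hoxd9 went from 76.6% and 81.6% to 46.1%, 49.7% and 39.8%, and an unplaced end of Hoxa4 from 78.5% and 79.2% to 44.7%, 43.0% and 46.2%. Hoxa, Hoxb, Hoxc and Hoxd had 5, 5, 4 and 3 lower windows of 10, 11, 13 and 7. The Hoxb2 call was lost without DMSO replicate 2 (adjusted p = 0.0659, limma-moderated test).

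Pluripotency genes had 5 of 11 windows lower, and 2 of 11 without DMSO replicate 1, where 16.7% of all end windows were lower in the full comparison. Their starts were unlike: Klf2, Klf4 and Tfcp2l1 were under 10% in DMSO and not called, while Utf1 went from 85.7% and 85.6% to 49.8%, 47.3% and 57.1%. Sox2 went from 97.6% and 87.5% to 64.2%, 47.0% and 48.5%, and Pou5f1, which encodes Oct4, from 82.4% and 75.8% to 35.0%, 37.6% and 51.1%. The calls of Sox2 and Pou5f1 rest on 4 and 3 CpGs and were lost without DMSO replicate 1 (adjusted p = 0.0645 and 0.110, limma-moderated test). Fgf4, at 40.8% and 51.7% in DMSO and 37.8%, 34.3% and 33.3% after treatment, was not called. By starting level, 3 of 3 pluripotency windows at 80% or above in DMSO were lower and 2 of 4 at 20 to 80%. Over all windows these counts were 1333 of 1389 and 1183 of 2712.

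Tumour suppressor genes were mostly unmethylated, and 6 of 26 windows were lower, near the 16.7% of all end windows. Socs1, Cdkn2c and Rb1, which restrain cytokine signalling and the cell cycle, were under 1% in all 5 libraries. The start of Dapk1 went from 90% and 92.5% to 47.3%, 52.4% and 58.2%. Cdkn1c, an imprinted cell cycle inhibitor, went from 98.7% and 96.0% to 46.4%, 57.1% and 49.5%, and the start of Sfrp2, a Wnt antagonist, from 47.4% and 54.7% to 20.7%, 24.3% and 27.0%. The other calls were the start of Rassf1 and the far ends of Cdkn2b and Mgmt, and these 3 did not hold without DMSO replicate 2, which left 3 lower windows. An end of Sfrp1, another Wnt antagonist, overlapped between groups, at 96.9% and 100% in DMSO and 94.1%, 100% and 88.9% after treatment, on 24 to 68 reads over 4 CpGs.

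In the remaining lists the calls at gene ends were few, where 16.7% of all end windows were lower. Of 20 windows of the methylation machinery, among them the starts of Dnmt3b, Uhrf1, Tet2 and Tet3, 1 was lower, at the far end of Dmap1. Tet1 stood apart at its start, with 40.5% and 27.3% in DMSO and 26.3%, 15.2% and 25.6% after treatment, and was not called (adjusted p = 0.200, limma-moderated test). Of 8 windows of genes that take up, activate or clear deoxycytidine analogues, 1 was lower, the far end of Cda, the deaminase that inactivates 5-aza-dC. The start of Dck, the kinase that activates it, was under 1% in every library. B lineage genes had 1 of 17 windows lower, the far end of Tcf3, from 96.8% and 95.9% to 48.2%, 49.6% and 34.9%, while its start stayed under 1%. T lineage genes had 1 of 4 lower, Bcl11b, from 77.4% and 84.5% to 58.6%, 53.4% and 51.9%. Lat, an adaptor of T cell receptor signalling, was at 51.0% and 55.8% in DMSO and 34.2%, 60.8% and 52.7% after treatment and was not called. None of 8 myeloid and erythroid, 9 interferon-sensing or 21 housekeeping windows was called by the limma-moderated test. With levels on the arcsine scale in limma, 1 housekeeping window was lower and 1 B lineage window was higher. The calls of Dmap1, Cda and Bcl11b were lost without DMSO replicate 2 (adjusted p = 0.0543, 0.0510 and 0.0616, limma-moderated test). In the test used throughout, no end window of a listed gene was called higher.

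Gene bodies, the part of a gene more than 1 kb from its ends, were tested in 8017 genes. The test called 4395 lower (54.8%) and 11 higher (0.137%, and 5 without 2 µM replicate 3 or 6 without 2 µM replicate 2), and all 3 treated libraries lay below both DMSO libraries in 5205 (64.9%) and above in 140 (1.75%). The median body went from 48.5% to 29.5%. Against the median change 2013 were lower and 741 higher. Of 2268 bodies at 80% or above in DMSO, 2251 were lower, and of 2654 under 20%, 46. Il6st, the signalling receptor of the interleukin 6 family, went from 100% and 96.0% to 35.9%, 35.0% and 21.8%, and Zc3h11a, a zinc finger protein of mRNA export, from 96.9% and 91.7% to 34.4%, 25.0% and 24.1%, each on 3 CpGs. Gm31671, Gm26520 and Gm34276 were the other deepest falls.

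Counts of lower bodies in the lists stand beside 54.8% of all bodies, and whether lists differ was not tested. All 8 germline bodies were lower: Tdrd6, a tudor domain protein with 49 CpGs, went from 86.1% and 84.1% to 58.2%, 47.1% and 50.4%. Of 6 T lineage bodies 5 were lower. Bcl11b, a transcription factor that commits cells to the T lineage, went from 86.7% and 86.0% to 43.1%, 47.7% and 45.7% over 53 CpGs (adjusted p = 3.22e-10, limma-moderated test). Of 5 interferon-sensing bodies 4 were lower, among them Irf3, a transcription factor that switches on type I interferon, from 93.9% and 95.7% to 58.9%, 41.3% and 21.9%. Of 6 myeloid and erythroid bodies 5 were lower, among them Mpo, myeloperoxidase, from 95.2% in both to 34.7%, 44.6% and 40%, and without DMSO replicate 1 there were 3. Uhrf1, the protein that brings DNMT1 to newly copied DNA, went from 84.1% and 86.2% to 65.3%, 61.3% and 47.6%.

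Of 12 B lineage bodies 6 were lower, close to the 54.8% of all bodies. Ebf1, a transcription factor that specifies B cells, went from 44.0% and 54.5% to 27.1%, 24.1% and 29.9%, and Pax5, which maintains B cell identity, showed 4.23% and 6.05% in DMSO and 6.33%, 4.64% and 5.04% after treatment over 120 CpGs. Of 12 imprinted bodies 7 were lower, among them Snrpn, from 87.4% and 85.6% to 51.4%, 49.9% and 54.1%, and Igf2, from 49.6% and 61.3% to 33.1%, 27.7% and 32.1%. The Gnas body, 138 CpGs, was at 10.9% and 10.7% in DMSO and 12.5%, 12.4% and 14.2% after treatment and was not called. Tumour suppressor bodies had 8 of 19 lower, with Brca1 going from 95.0% and 100% to 51.1%, 54.5% and 43.4%. The methylation machinery had 3 of 9, pluripotency genes 3 of 5, drug metabolism genes 2 of 6 and housekeeping genes 2 of 7. Without DMSO replicate 2 the tumour suppressor bodies had 5 lower and the B lineage bodies 3, with 1 of the latter higher.

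Of 25 Hox bodies 17 were lower and 1 was higher, where 54.8% and 0.137% of all bodies were. Hoxd11 went from 85.8% and 87.2% to 36.2%, 48.7% and 51.2%. Hoxb2 rose from 11.2% and 14.3% to 21%, 23.7% and 29.5% over 7 CpGs, and the call was lost without DMSO replicate 1 (adjusted p = 0.361, limma-moderated test) or DMSO replicate 2 (adjusted p = 0.0785), and without 2 µM replicate 2 (adjusted p = 0.0509) or 2 µM replicate 3 (adjusted p = 0.131). The other rises that met the naming rule were Gpr12, a receptor, from 4% and 12% to 23.3%, 35.0% and 27.7%, and Gm31452, from 22.6% and 5.13% to 23.3%, 34.5% and 26.7%. With CpGs at 1 or more reads the Gpr12 body was called lower instead, at a change of -12.8 points (adjusted p = 0.00178, limma-moderated test). Gpr12 lost its call without DMSO replicate 1 (adjusted p = 0.145) and Gm31452 without DMSO replicate 2 (adjusted p = 0.588, limma-moderated test), 2 µM replicate 2 (adjusted p = 0.166) or 2 µM replicate 3 (adjusted p = 0.0782).

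In 1684 genes both the ends and the body could be fitted, and the change of one was tested against that of the other in limma on log2 odds. The body fell more in 250 genes (14.8%) and the ends in 126 (7.48%), and 565 had an unadjusted p under 0.05. Without DMSO replicate 1 these counts were 158 and 77, and without 2 µM replicate 2 they were 167 and 82. Where the body fell more, the median body went from 91.9% to 45.6% and the median end from 29% to 22.0%, and in 192 of the 250 the ends were under 50% in DMSO. Where the ends fell more, they went from 93.5% to 47.9% and the bodies from 40.7% to 29.4%.

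Npepl1, an aminopeptidase gene, had ends at 25.1% and 24.4% in DMSO and 28.0%, 28.4% and 26.9% after treatment, while its body went from 98.0% and 97.8% to 55.7%, 46.8% and 43.2% (adjusted p = 0.000832 for the difference, limma). Nynrin had ends at 12.5% and 8.33%, and 16.2%, 12.6% and 9.38% after treatment, while its body went from 92.0% and 93.5% to 45.7%, 42.5% and 38.0%. The reverse was seen in Slc5a10 and in Rara, the retinoic acid receptor alpha. Ends of Rara went from 96.4% and 97.5% to 43.3%, 53.8% and 43.9%, while its body, at 13.4% and 15.9%, was at 13.0%, 13.7% and 13.8% after treatment. These genes were picked from the top of that test, so unequal change is what named them. In them the part that was more methylated in DMSO changed and the other part moved by few points. In Svep1, also near the top, the ends moved too, from a mean of 36.0% to 18.0%. The Svep1 body went from 100% to 45.0%. Among listed genes the body fell more in Hoxd11, Tcf3, Hoxc6 and Hoxc13 and the ends in Hoxb2, Mest, Zrsr1 and Cdkn1c. The test is on odds, so a part near 100% can differ from one at 90% in it with similar loss in points, as in Cdkn1c, whose ends went from 97.3% to 51.0% and body from 92.6% to 56.1%.

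In female cells 1 X is inactive and carries methylation at CpG-rich gene starts. Over 8248 X-linked CpGs the mean was 39.5% and 41.3% in DMSO and 27.6%, 27.7% and 28.7% at 2 µM, so 69.3% was kept, against 59.2% over 501685 autosomal CpGs. Single autosomes kept 58.3% to 60.3%. The ratio of X to autosomes went from 2.18 ± 0.0518 (SD, n = 2) to 2.56 ± 0.0259 (SD, n = 3), with no overlap (exact permutation p = 0.1, the smallest possible). Near X-linked gene ends the level was 28.1% and 30.6% in DMSO and 22.2%, 22.2% and 23.7% after treatment. Against DMSO replicate 2 alone, CpGs near gene ends kept 74.3% on the X and 63.1% on autosomes. Outside genes these shares were 60.9% and 57.5%. By starting level, X-linked CpGs at 80% or above kept 57.9% and autosomal ones 55.3%, and at 20 to 50% they kept 80.3% and 65.1%. With the DMSO libraries exchanged, the shares were 57.9% and 55.4%, and 89.3% and 67.8%. The X kept more at a minimum of 1 read (68.5% against 61.8%) and of 10 reads (77.5% against 63.5%, over 2248 X-linked CpGs).

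By gene, 74 of 343 X-linked end windows were lower and 2 higher, and 92 of 175 X-linked bodies lower and 1 higher. These counts stand beside 16.7% of all end windows and 54.8% of all bodies called lower. Starting levels differed: 127 of 343 X-linked end windows were under 20% in DMSO, and 11014 of 14899 autosomal ones. At 20 to 80%, 31 of 168 X-linked and 1152 of 2544 autosomal end windows were lower. At 80% or above the counts were 43 of 48 and 1290 of 1341. Bodies at 20 to 80% had 48 of 98 and 2050 of 2997 lower. Whether the X and autosomes differ in these counts was not tested. The Hprt start, a housekeeping gene subject to X inactivation, was at 25.4% and 32.9% in DMSO and at 20.7%, 17.6% and 21.8% after treatment and was not called (adjusted p = 0.270, limma-moderated test). The start of Pgk1 was at 5.45% and 23.5% in DMSO and 8.33%, 11.2% and 22.6% after treatment. The body of Taf7l, an X-linked germline gene, went from 90.2% and 94.0% to 55.7%, 61.4% and 56.1%. The treated libraries lay below both DMSO libraries in Hprt and Taf7l and overlapped them in Pgk1.

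**Figure D4:**
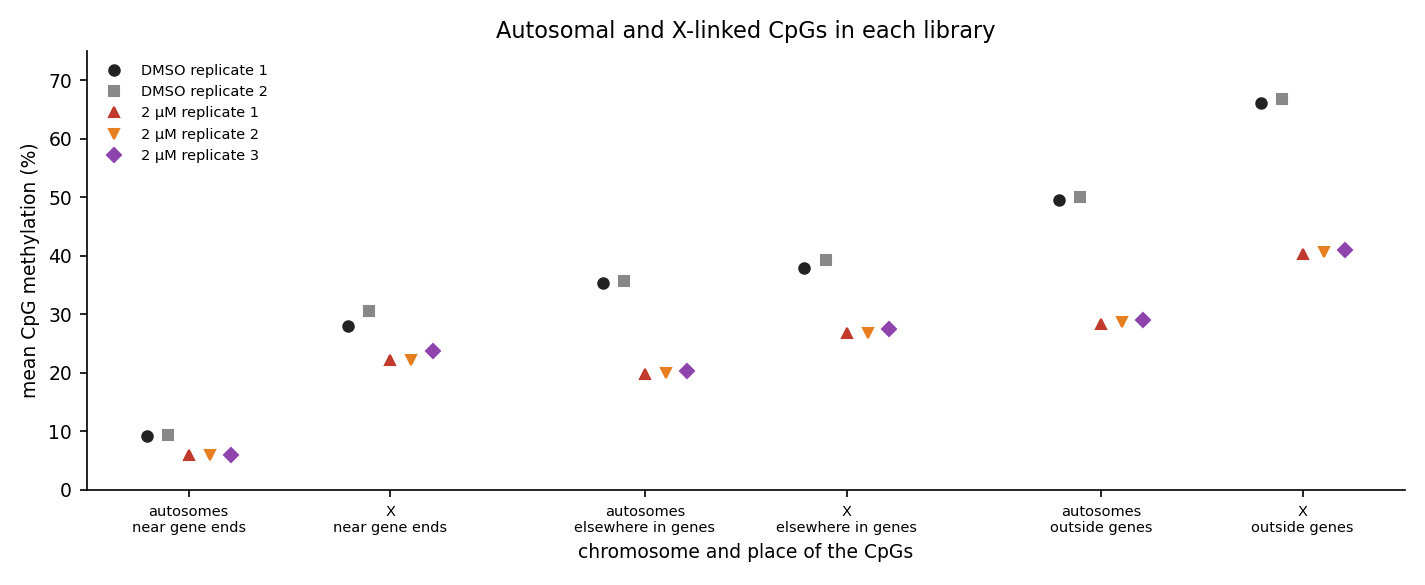
Mean CpG level (%) of autosomal and X-linked CpGs near gene ends, elsewhere in genes and outside genes; each symbol is 1 library. Near gene ends the X-linked CpGs stand at 28.1% and 30.6% in DMSO and at 22.2% to 23.7% after treatment, above the autosomal CpGs in every library.

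The 3 treated libraries had nearly equal means and were compared tile by tile with each other, as were the DMSO libraries. Over 44647 tiles with 20 or more reads the correlation between the DMSO libraries was 0.982 and between treated pairs 0.890 to 0.90, as a description over tiles that share each library's depth. The mean absolute difference per tile was 4.67 points in DMSO and 6.68 to 6.94 between treated pairs. For tiles at 10 to 90% the chi-square over its degrees of freedom, which is 1 where counting error alone sets the spread, was 2.00 within DMSO and 3.44 within the treated libraries. Before scaling, 6746 tiles (15.1%) differed among the treated libraries and 551 (1.23%) between the DMSO libraries. Reads were then scaled for their correlation within a tile, which was estimated from the spread between libraries within both groups. The scaling thus also takes up real differences between libraries and draws the value towards 1. After it the value was 0.794 within DMSO and 1.16 within the treated libraries. On scaled reads 35 tiles (0.0784%) differed among the treated libraries and 4 (0.00896%) between the DMSO libraries. These small counts cannot show that the libraries agree. With 50 or more reads the scaled counts were 11 and 7 of 23558 tiles, so their contrast between the groups depended on the minimum. In 98.8% of the tiles called lower all 3 treated libraries lay below both DMSO libraries, and the lowest library was replicate 1 in 36.9%, replicate 2 in 33.3% and replicate 3 in 29.8% of them. The groups were not compared at equal level, and their part of this difference was not tested.

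Among the tiles that differed most, several show 1 treated library apart from the others. In Sh3pxd2a (chr19:47343001-47344000) the tile was at 94.4% and 98.1% in DMSO and 33.0%, 56.1% and 95.2% after treatment. In the imprinted gene Rtl1 (chr12:109585001-109586000) it was at 86.4% and 85.7%, and 12.3%, 0% and 78.6%. In Foxa2, a transcription factor of endoderm (chr2:148043001-148044000), it was at 60.4% and 58.3%, and 0%, 75.3% and 32.9%. In the X-linked Bex3 (chrX:136270001-136271000) it was at 23.2% and 0%, and 0%, 76.7% and 8.33%. In Otud7a (chr7:63758001-63759000), with 80 CpGs and 387 to 1027 reads, it was at 96.5% and 94.6%, and 65.7%, 37.4% and 50.2%. The library that was low differed from tile to tile. Among gene ends with 50 or more reads the widest treated ranges included the far end of Fga, a fibrinogen chain, at 77.9%, 55.2% and 29%, the start of Cbln4, a synaptic organiser, at 43.5%, 68.7% and 85.9%, the window shared by Syne4 and Alkbh6 at 32.1%, 58.4% and 70.2%, and that of Irs4, an insulin receptor substrate on the X, at 27.7%, 43.8% and 63.8%. Of these the Fga window was not called lower, though it was without DMSO replicate 1 (adjusted p = 0.0384, limma-moderated test) or 2 µM replicate 1 (adjusted p = 0.0140). The Cbln4 call was lost without any 1 of the DMSO libraries or of 2 µM replicates 1 and 2. With limma on arcsine levels none of these windows was called, Syne4 and Alkbh6 at an adjusted p of 0.0590 and Irs4 at 0.0516.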

How the data were processed

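RRBS data of 5 libraries were used, 2 of DMSO and 3 of 2 µM 5-aza-dC. For each library the authors deposited a table without a header, holding for each CpG a text entry of methylated over all reads and a score. That deposited score equals the methylated share times 1000 rounded down and served only as a check. The deposited text entry is the other value and gave the read counts. Coordinates are mm10, per the submitters' processing notes. All 253343 measured CpGs inside RefSeq promoter runs fell on a CG of the sequence. No aligner or methylation caller is given in the sources used here. PCR copies and variants between the parental strains were not separated. Lines of odd width (1 to 2 per library) and repeated positions (18 to 62) were left out.

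The members and lists were chosen with earlier results of these data known. CpGs needed 5 reads and tiles 10 in each library, gene windows and bodies 3 CpGs. Means of libraries were compared by exact permutation. Tiles, gene ends and bodies were fitted with a quasi-binomial model on effective reads (R 4.3.3, limma 3.58.1). The correlation of reads was estimated in 5 classes of coverage, from the spread between libraries within groups, pooled over features. The dispersion was moderated in limma and held at 1 or more, and its median was 1 for tiles, ends and bodies. Most of these p-values thus rest on pooled spread more than on that of the single feature. Benjamini-Hochberg adjustment was over all features. The design had the prior of the dispersion estimated from all features. With that prior the test found none of 200 changes put into simulated data, so the prior was taken from features at 10 to 90%. This choice was made after seeing the data. With it the test found 48 of 200 changes in simulated tiles, 143 in ends and 161 in bodies. The simulation changed far fewer features than changed here, so it is a limited guide. The prior from all features found no change in simulated bodies but called 3578 real bodies lower. Ends and bodies were compared on log2 odds with 0.5 added reads, in genes at 10 to 90% in both parts.

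Named windows are the 10 deepest falls and 5 largest rises among calls with 20 or more reads and groups that do not overlap, the 5 smallest changes at 80% or above and the 5 widest treated ranges with 50 or more reads. Bodies have 5 falls and 3 rises, tiles 3 and 3, and each list its 4 members with most reads. Other genes were named after their values were seen. The tiles that differed among treated libraries were taken from the head of their ranking. Some genes that these rules name are not reported here. Alternatives were other read minimums, windows, scaling, priors, the median change, all 9 libraries, limma on arcsine levels, a replicate block and leaving out each library. Groups of 2 and 3 were not tested for outliers.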

Additional observations from a re-analysis of the deposited data

How the results depend on the processing

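Every mean difference stayed negative under the alternatives run, but its size moved with the CpGs counted. For all CpGs it was -2.52 points at a minimum of 10 reads, -14.9 at 1 read, -0.686 weighted by reads, -1.22 weighted by reads without the 1000 most-read CpGs, and -1.58 over each library's own CpGs. Over each library's own CpGs the groups overlapped (exact permutation p = 0.7). There DMSO was at 27.2% and 21.2% and the treated libraries at 21.4%, 22.9% and 23.7%, all above DMSO replicate 2. The groups also overlapped in the mean weighted by reads (exact permutation p = 0.7). Near gene ends the difference was -1.24 at 10 reads, -6.36 at 1 read and -4.17 within 2 kb of an end. Elsewhere in genes it was -5.71, -22.7 and -18.1 under the same settings, and outside genes -11.6, -25.3 and -22.1. For tiles it was -17.2 at 20 reads. These minimums keep different sets of CpGs, with a DMSO mean of 18.9% at 5 reads and 7.03% at 10. Leaving out 1 library at a time gave -7.75 to -7.53 points for all CpGs, -3.52 to -3.38 near gene ends, -15.5 to -15.2 elsewhere in genes, -21.5 to -21.0 outside genes and -22.4 to -21.9 for tiles.

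With the prior of the dispersion drawn from all features, 0 tiles were lower and 0 higher, 0 ends lower and 0 higher, and 3578 bodies lower and 2 higher. This setting, like the removal of the 1000 most-read CpGs, was added to the plan after seeing the data, and it is the design as first written. Against the median change, 4786 tiles were lower and 1700 higher, 1639 ends lower and 41 higher, and 2013 bodies lower and 741 higher. With arcsine levels in limma, 251 tiles and 75 ends were higher, and without scaling of reads 17 ends were. At 20 reads 18684 tiles were lower, of 44647 tested. With CpGs at 1 or more reads, 5687 ends were lower and 24 higher, and 10297 bodies lower and 35 higher, since more features could be tested. At 10 or more reads 325 of 11095 ends were lower and 2 higher, and 816 of 3471 bodies were lower and 9 higher. With CpGs at 5 or more reads, 753 of these ends and 1126 of these bodies were lower. With windows of 500 bp 1617 ends were lower. Leaving out 1 library gave 19553 to 32147 lower and 35 to 101 higher tiles, 1716 to 2372 lower and 5 to 13 higher ends, 3694 to 4221 lower and 5 to 10 higher bodies, and 158 to 198 genes where the body and 77 to 99 where the end fell more. With 1 DMSO library left, that library was assumed to vary like the treated ones. With 50 or more reads 11 tiles differed among the treated libraries and 7 between the DMSO libraries, on scaled reads.

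Replicate numbers did not pair the samples: over tiles, the difference of DMSO replicates 1 and 2 correlated at -0.00327 with that of 2 µM replicates 1 and 2, and replicate 3 has no DMSO partner. With a replicate block, which leaves 1 residual degree of freedom and took its prior from the fit without it, 32414 tiles were lower and 101 higher, 2312 ends lower and 11 higher, and 4280 bodies lower and 5 higher.

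Some named features turned direction. The tile in Scn4a was at -12.2 points unweighted, the Sms start at -4.81 with 500 bp windows, the Gpr12 body at -12.8 and the Tal1 body at 2.42 with CpGs at 1 or more reads. With the last setting the Gpr12 body was called lower (adjusted p = 0.00178, limma-moderated test). For these 4 the cause was not tested. Against the median change, which moves the point of comparison of every body by -0.847 on the log odds scale, bodies that changed less than the median can be called higher by construction, at these changes in points: Gata2 (-9.99), Dlc1 (-3.48), Hoxb9 (-3.45), Ptpn6 (-2.21), Trp53 (-0.817), Dnmt1 (-0.156) and Cdkn1a (-0.0144). Depth limits single CpGs, with a median of 3 to 5 reads, and windows near 15 to 25 reads, where the levels above are rough.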

Other observations

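Across RefSeq promoters of 300 bases, 8242 had 3 or more measured CpGs, and 322 of them stood at 80% or above in DMSO, with a treated mean of 52.1%. Grouped by CpG density, promoters at 50% or above kept 58.1% with 5 to 9 CpGs and 56.0% with 10 to 19. Those with 20 to 29 kept 57.8% and those with 30 or more 59.2%. With the DMSO libraries exchanged the shares were 58.2%, 57.9%, 59.2% and 60.7%. Among 1 kb tiles at 80% or above the share kept was 54.2% with 1 to 2 measured CpGs, 54.9% with 3 to 5, 58.8% with 6 to 10, 60.0% with 11 to 20 and 60.9% with 21 or more, and 54.5% to 61.0% with the DMSO libraries exchanged. The letters CACGTG, the same on both strands, were in 16 of 43 germline promoters (37.2%), in 31 of the 322 methylated ones (9.63%), in 10.8% of the measured promoters and in 7.15% of all 32817. GCGGGA on either strand was in 41.9% of the germline promoters and 44.6% of the measured ones. Several promoters can belong to 1 gene, and these shares are descriptions of the letters in these windows.

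Long noncoding RNA genes and protein-coding genes can be set side by side: 577 of 2650 end windows of the former and 1961 of 12592 of the latter were lower, with median changes of -0.489 and -0.192 points, and their bodies had median changes of -16.4 and -17.9 points.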
